A study of Rattus norvegicus with 12 samples.

Results

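The 7 genes described here code for components and regulators of the complement system: the proteases C1r, C1s, C2 and Cfb, the central component C3, the inhibitor Serping1 and the membrane regulator Cd55. They were taken by name from the 33294 genes of the count table, and all 7 were found in it. The naming rule applies no measured value, but the genes were chosen with earlier results of these data known. They were measured in 12 poly(A) RNA-Seq libraries of PAC1 cells, a rat pulmonary artery smooth muscle line, in 4 groups of 3. D1 is the more differentiated culture (PAC1-D) and P the more proliferative culture (PAC1-P), both with control siRNA, and RBPMS KD1 and MBNL KD are PAC1-D cells with siRNA against Rbpms or against both Mbnl1 and Mbnl2, RNA-binding proteins that control splicing. The study asked what these proteins contribute to the differentiated smooth muscle transcriptome and how that relates to the D to P transition. All cells were thus transfected, at 90 pmol of siRNA. The labels place a second treatment 24 h after the first and the harvest 48 h after the second, and the methods give later times for both steps. PAC1 is 1 cell line, and the cultures differ in how often and how thinly they were split. The methods describe the knockdown conditions as biologically replicated, and p-values measure the spread between these replicates of 1 line.

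Complement is a cascade of plasma and membrane proteins that marks and lyses targets and recruits leukocytes. In the classical pathway the recognition molecule C1q activates C1r, which cleaves C1s, and C1s cleaves C4 and C2. In the lectin pathway mannose-binding lectin or collectins take the place of C1q and the MASP proteases that of C1r and C1s, and in the alternative pathway Cfb, a close relative of C2, supplies the protease. All routes meet at the cleavage of C3. Serping1 (C1 inhibitor) blocks C1r, C1s and the MASPs, and Cd55 (decay-accelerating factor) takes apart the C3-cleaving enzymes on the cell's own surface. The liver makes most plasma complement, and fibroblasts and smooth muscle cells also make C1r, C1s and C3, many of these genes being inducible by interferons and interleukin 6.

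Total counts lay between 80842635 and 90771289 per library, at which 3 counts, taken here as the limit of detection, correspond to 0.0331 to 0.0371 CPM. Among counts of 1 to 20 over all genes, 68.7% were even, and the library totals exceed the number of reads to which the authors subsampled. Counts therefore cannot all stand for separate fragments. Intervals and detection limits given here cover counting error only. They treat each count as a separate fragment, so the intervals are too narrow. Rbpms fell to 25.0% of the D1 mean in RBPMS KD1, and Mbnl1 and Mbnl2 fell to 23.8% and 29.6% in MBNL KD. In P, Rbpms lay at 6.32% of D1. The summed level of 8 smooth muscle markers, all detected in every library, ranged from 870325 to 914829 scaled counts in D1, from 18716 to 19889 in P, from 433753 to 449208 in RBPMS KD1 and from 694966 to 705329 in MBNL KD. Among markers of other cell types, Ptprc of macrophages had at most 4 counts in any library, Alb of hepatocytes at most 2 and Kdr of endothelium at most 4, but other markers on the same lists were detected. Cd14 had a mean of 5262 scaled counts in D1, and the means in D1 and P were 23.9 and 315 for Tek, 0 and 122 for Cdh5, 7.51 and 84.5 for Serpina1, and 11.6 and 150 for Tf. Throughout, scaled counts are counts adjusted for library size and composition by TMM factors, and differences are log2 fold changes with standard errors (SE) and Benjamini-Hochberg adjusted p-values from edgeR's quasi-likelihood test over all genes tested.

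In P the complement genes moved in both directions. Cd55 was 12.7-fold higher than in D1, whereas C1r was 2.57-fold lower, C1s 1.79-fold lower and C2 1.47-fold lower. In the knockdowns C1s moved in opposite directions, 2.63-fold higher in RBPMS KD1 and 2.20-fold lower in MBNL KD. Cfb passed the test in none of the 4 comparisons by edgeR, with unadjusted p-values between 0.33 and 0.94, and its DESeq2 adjusted p-values lay between 0.47 and 0.97. C3 and Serping1 were near the limit of detection.

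Of the 6 members that could be tested between P and D1, 2 were higher (C3 and Cd55) and 3 lower (C1s, C1r and C2) at an adjusted p under 0.05, against 40.4% higher and 37.6% lower among all 16814 genes tested. With a log2 fold change beyond 1 also required, 3 members were called (Cd55, C1r and C3), against 27.6% of all genes. The call of C3 rests on few counts and was lost in 9 of 13 alternatives and turned in direction in 1 more. Between RBPMS KD1 and D1, 3 of 5 tested members were higher (C1s, C1r and Cd55) and the other 2 did not pass, against 29.5% higher and 29.5% lower among 15904 genes, and 1 member, C1s, also passed the fold threshold, against 4.68% of all genes. Between MBNL KD and D1, 1 of 5 was higher (Cd55) and 3 lower (C1s, C1r and C2), against 33.8% and 33.7% of 16053 genes, and C1s alone of the members passed both thresholds, against 10.2% of all genes. In the direct comparison of the knockdowns, 4 of 5 tested members were higher in RBPMS KD1 (C1s, C1r, C2 and Cd55), against 34.5% higher and 35.1% lower among 16111 genes, and 1 (C1s) was called, against 11.9%. The 3 comparisons with D1 share the same D1 libraries and are not independent of each other. The members' median log2 fold change over those tested was -0.34 in P, 0.62 in RBPMS KD1 and -0.18 in MBNL KD, where the medians over all genes tested were 0.020, 0.0043 and 0.0099. C3 and Serping1 were left out by the filter on low counts in both knockdowns, and Serping1 also in P.

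**Figure D1:**
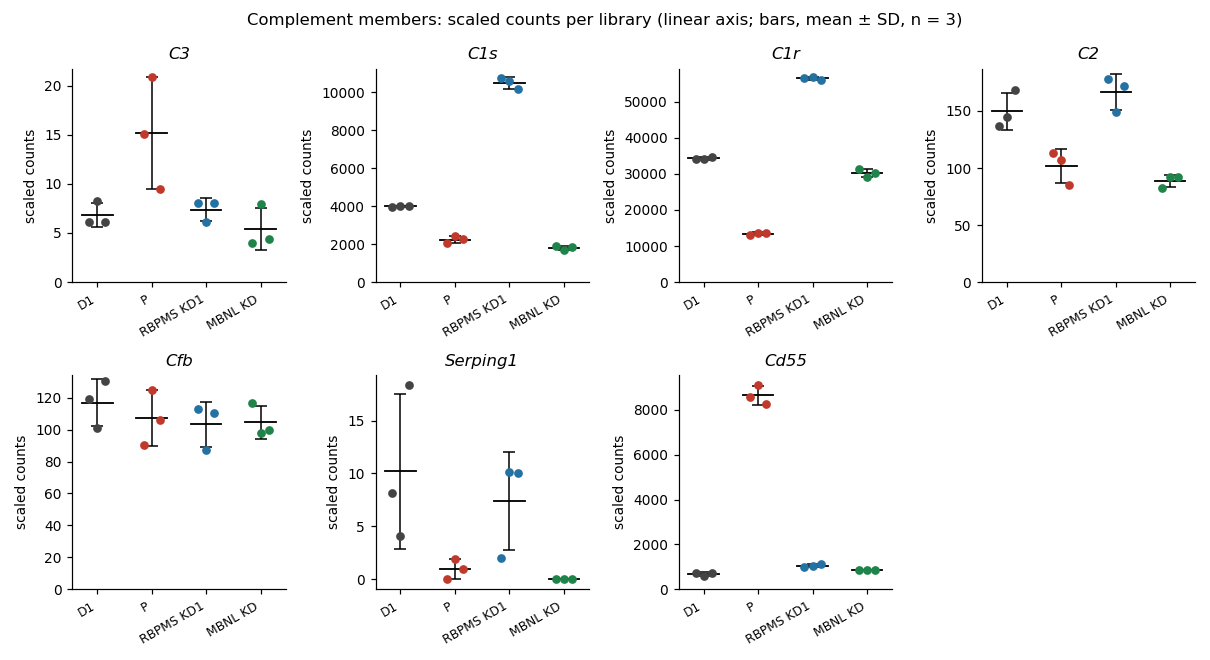
Scaled counts of the 7 complement genes in each of the 12 libraries, with a linear axis of its own for each gene; points are libraries, and horizontal and vertical bars are the mean and SD of 3 libraries. C1s is highest in the 3 RBPMS KD1 libraries and Cd55 in the 3 P libraries, while the 4 groups overlap for Cfb.

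C1r, the protease that starts the classical cascade, had 34140, 33963 and 34782 scaled counts in the D1 libraries. It had 12987, 13615 and 13593 in P, 56568, 56881 and 55968 in RBPMS KD1, and 31423, 29248 and 30090 in MBNL KD. Every P library lay below every library of the other groups and every RBPMS KD1 library above them, and MBNL KD lay below D1 without overlap. The log2 fold change against D1 was -1.36 (SE 0.026, edgeR adjusted p = 8.3e-31) in P. It was 0.72 (SE 0.024, edgeR adjusted p = 3.1e-20) in RBPMS KD1, under the fold threshold. In MBNL KD it was -0.18 (SE 0.027, edgeR adjusted p = 8.8e-07), a difference of 1.13-fold. In bulk RNA, a lower level can come from fewer cells that carry a transcript or from less of it per cell, and these cannot be told apart.

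C1s, the protease that C1r activates, had 3985, 4027 and 3994 scaled counts in D1 and 2042, 2440 and 2255 in P. In the knockdowns of the same differentiated cells it had 10732, 10601 and 10160 scaled counts with siRNA against Rbpms, and 1915, 1710 and 1826 with siRNAs against Mbnl1 and Mbnl2. The RBPMS KD1 libraries were the highest and did not overlap any other group, and the MBNL KD libraries were the lowest and lay under the P libraries as well. The log2 fold change was -0.84 (SE 0.045, edgeR adjusted p = 7.9e-18) in P, 1.39 (SE 0.030, edgeR adjusted p = 4.3e-24) in RBPMS KD1 and -1.14 (SE 0.041, edgeR adjusted p = 1.9e-20) in MBNL KD. Tested directly, C1s was 5.80-fold higher in RBPMS KD1 than in MBNL KD, with a log2 fold change of 2.54 (SE 0.037, edgeR adjusted p = 2.2e-30). The same comparison gave 0.91 (SE 0.028, edgeR adjusted p = 1.5e-22) for C1r.

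C1r and C1s act as partners in the C1 complex, and their balance differed between the groups. C1s counts per 100 C1r counts were 11.7, 11.9 and 11.5 in the D1 libraries, with 15.7, 17.9 and 16.6 in P. The ratio was 19.0, 18.6 and 18.2 in RBPMS KD1 and 6.10, 5.85 and 6.07 in MBNL KD. P and RBPMS KD1 lay above D1 and MBNL KD below it, without overlap. The means differed from that of D1 by 1.43-fold, 1.59-fold and 1.94-fold, and each of these differences had a two-sided exact permutation p of 0.1, the smallest that 3 libraries against 3 can give. The ratio sets counts within a library against each other and does not depend on scaling, but it is not a ratio of molecules, since the transcripts' lengths were not used.

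In the RefSeq gene order of assembly GRCr8, C1rl, C1r and C1s lie next to each other. C1rl codes for a C1r-like protease and is not one of the 7 genes, and its values were looked up because of its position and are named after they were seen. It had 644 to 750 scaled counts in D1, 613 to 734 in P and 616 to 709 in MBNL KD, all overlapping, but 2087 to 2229 in RBPMS KD1. Against D1 this was a 3.07-fold difference, with a log2 fold change of 1.62 (SE 0.058, edgeR adjusted p = 1.7e-19), so that the 3 adjacent genes were all higher after Rbpms knockdown. In P the log2 fold change of C1rl was -0.084 (SE 0.077, edgeR adjusted p = 0.33) and in MBNL KD -0.071 (SE 0.075, edgeR adjusted p = 0.42), while C1r and C1s had both fallen there. An uncharacterised gene that overlaps C1r, LOC102553847, had 17 to 86 counts per library, which is small beside the counts of C1r. Counting is not stated to use strand, and reads of overlapping genes therefore cannot be told apart. Of the 8 genes that neighbour or overlap a member in this order and are in the table, 7 were tested in each comparison, and 2 were called in P, LOC102553847 and Ube2l6, the gene next to Serping1, against 27.6% of all genes. C1rl was the 1 called in RBPMS KD1, against 4.68% of all genes, and C1rl and Ube2l6 were the 2 called between the knockdowns, against 11.9%. In MBNL KD 2 passed the test as lower, Ehmt2 and Ube2l6, against 33.7% of all genes, with changes under the fold threshold.

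**Figure D2:**
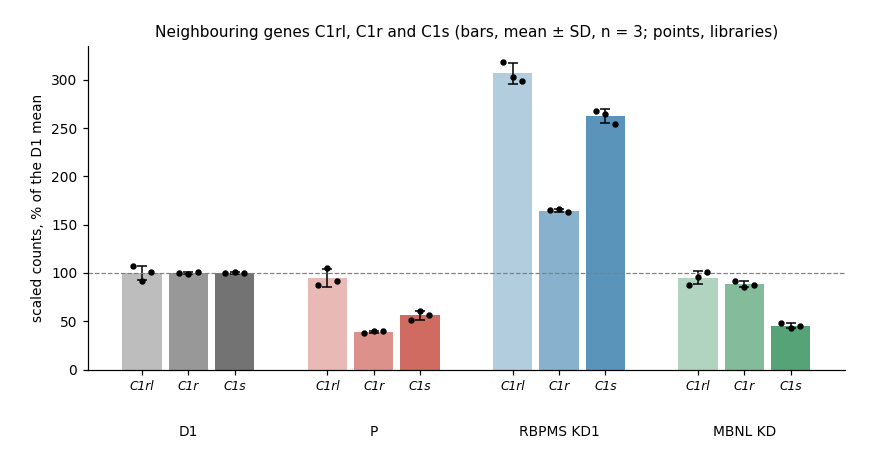
Scaled counts of the neighbouring genes C1rl, C1r and C1s as a percentage of each gene's D1 mean (dashed line, 100%); bars are means with SD of 3 libraries and points are libraries. All 3 genes lie above 150% in RBPMS KD1, C1r and C1s but not C1rl lie well below 100% in P, and C1s lies lowest in MBNL KD.

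A promoter sequence was given for 3 of the 7 genes, C3, C1r and Cd55. The 250 bases before the RefSeq start of C1r (GRCr8, chr4:159098763-159099012, + strand) and of Cd55 (GRCr8, chr13:44438102-44438351, − strand) are shown because, of the 3, these were the members with enough counts for a firm comparison, and they changed in opposite directions in P. Capitals mark letters that match the patterns TTNNGNAA (C/EBP), GGG and CC with 5 bases of any kind between them (NF-kB) or GGGCGG (GC box) on either strand, with overlapping matches run together.

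C1r: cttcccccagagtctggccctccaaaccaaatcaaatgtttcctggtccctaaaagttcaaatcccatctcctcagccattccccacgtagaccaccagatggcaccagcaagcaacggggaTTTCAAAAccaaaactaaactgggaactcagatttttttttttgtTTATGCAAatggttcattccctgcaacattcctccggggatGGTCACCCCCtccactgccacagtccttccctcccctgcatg

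Cd55: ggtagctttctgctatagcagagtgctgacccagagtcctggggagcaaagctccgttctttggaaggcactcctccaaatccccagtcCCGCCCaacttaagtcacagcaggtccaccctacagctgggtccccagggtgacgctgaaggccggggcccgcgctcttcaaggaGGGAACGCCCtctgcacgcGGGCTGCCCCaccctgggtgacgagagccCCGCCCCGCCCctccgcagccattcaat

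The C1r window held C/EBP letters on both strands, ending 121 and 76 bases before the start, and 1 NF-kB match, and 49.6% of its bases were G or C. The Cd55 window held 3 GC boxes, at 161, 28 and 23 bases before the start, and NF-kB letters, and was richer in G and C at 64.4%, against a median of 51.2% over all promoters. The C3 window, not shown, held C/EBP and NF-kB letters. Such matches are common: C/EBP letters stood in 37.2%, NF-kB letters in 42.3% and the GC box in 30.5% of 33469 rat promoter windows of this length. The interferon patterns TTCNNNGAA (GAS, in 7.67% of windows) and a pair of GAAA set 2 bases apart (ISRE core, in 3.41%), TATAAA (12.9%) and the CArG box of smooth muscle genes (1.5%) had no match in the 3 windows, which says only that these letters are not within these bases. The matches are a description of the sequence and were not tested as binding sites.

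C2, the classical pathway protease cut by C1s, had 137, 144 and 168 scaled counts in D1. It had 113, 107 and 85.4 in P, 178, 149 and 172 in RBPMS KD1, and 82.6, 92.0 and 92.0 in MBNL KD. P and MBNL KD each lay below D1 without overlap, and RBPMS KD1 overlapped D1. The log2 fold change was -0.56 (SE 0.17, edgeR adjusted p = 0.0036) in P and -0.75 (SE 0.16, edgeR adjusted p = 0.00019) in MBNL KD, and 0.16 (SE 0.14, edgeR adjusted p = 0.37) in RBPMS KD1. Between the knockdowns it was 0.91 (SE 0.16, edgeR adjusted p = 8.2e-06), higher with Rbpms siRNA. Zbtb12, which overlaps C2 in RefSeq and has 451 to 645 counts per library, had log2 fold changes of -0.027 in P and -0.18 in MBNL KD that did not pass the test (edgeR adjusted p = 0.77 and 0.072), and reads shared between the 2 genes make the level of C2 uncertain.

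Cfb, the alternative pathway relative of C2 and its neighbour on the chromosome, had 119, 101 and 130 scaled counts in D1. It had 90.5, 125 and 106 in P, 113, 87.0 and 110 in RBPMS KD1, and 116, 97.9 and 99.6 in MBNL KD. The 4 groups overlapped, with means of 117 ± 14.8, 107 ± 17.3, 103 ± 14.2 and 105 ± 10.2 (SD, n = 3). The log2 fold changes against D1 were -0.13 (SE 0.18, edgeR adjusted p = 0.52), -0.18 (SE 0.18, edgeR adjusted p = 0.41) and -0.16 (SE 0.17, edgeR adjusted p = 0.43). C2 counts per 100 Cfb counts were 129 ± 14.2 in D1, 97.0 ± 24.4 in P, 162 ± 7.97 in RBPMS KD1 and 85.7 ± 12.8 in MBNL KD (SD, n = 3). The ratio did not overlap D1 in either knockdown, in opposite directions (two-sided exact permutation p = 0.1 for each, the smallest possible), and overlapped it in P (exact permutation p = 0.2).

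C3, the component on which the pathways converge, was barely detected. Its counts were 6, 8 and 6 in D1, 16, 22 and 10 in P, 8, 6 and 8 in RBPMS KD1 and 4, 8 and 4 in MBNL KD. The P libraries were the highest and did not overlap D1, and the knockdowns did overlap it. All 12 counts were even. The log2 fold change between P and D1 was 1.13 (SE 0.49, edgeR adjusted p = 0.036), and the ratio of the summed scaled counts was 2.22, with an exact 95% binomial interval of 1.29 to 3.95. The call was lost without any filter on low counts (adjusted p = 0.09), with DESeq2 (adjusted p = 0.089), in a fit blocked on replicate (edgeR adjusted p = 0.067) and when any library other than P replicate 3 was left out (adjusted p between 0.055 and 0.19), and the direction was turned after quantile normalization, with a log2 fold change of -0.044 by limma.

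Serping1, the only soluble inhibitor of C1r and C1s among the 7, was also near the limit of detection, with 8, 4 and 18 counts in D1. It had 0, 2 and 1 counts in P, 2, 10 and 10 in RBPMS KD1, and 0 in all 3 MBNL KD libraries. P and MBNL KD lay below D1 without overlap, and RBPMS KD1 overlapped it. The 30 counts of D1, 18 of them in 1 library, against the 3 of P gave a ratio of 10.8 after scaling, with an exact 95% binomial interval of 3.36 to 55.3. Against the limit of 3 counts per library, the mean of D1 was at least 3.33-fold higher than MBNL KD and that of RBPMS KD1 at least 2.44-fold higher. With no filter on low counts, edgeR gave an adjusted p of 0.0066 for P and 0.0002 for MBNL KD against D1 and 0.63 for RBPMS KD1. The neighbour Ube2l6, an interferon-inducible conjugating enzyme, had log2 fold changes of 1.25 in P and -0.32 in MBNL KD (edgeR adjusted p = 1.9e-22 and 0.00025). It thus lay opposite to Serping1 in P, and both genes were lower in MBNL KD.

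Cd55, which protects the cell that carries it, had 717, 593 and 730 scaled counts in D1. It had 8592, 9116 and 8271 in P, 980, 1048 and 1104 in RBPMS KD1, and 858, 864 and 840 in MBNL KD. All P libraries lay far above the rest, and both knockdowns lay above D1 without overlap. The log2 fold change was 3.66 (SE 0.050, edgeR adjusted p = 1e-34) in P. It was 0.62 (SE 0.073, edgeR adjusted p = 2.3e-08) in RBPMS KD1 and 0.33 (SE 0.073, edgeR adjusted p = 0.00023) in MBNL KD, a 1.54-fold and a 1.26-fold difference. The knockdowns differed from each other by 0.29 (SE 0.063, edgeR adjusted p = 0.00014), higher in RBPMS KD1. RefSeq lists 12 transcripts of Cd55 in GRCr8, membrane-anchored and other forms not being told apart in gene-level counts.

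**Figure D3:**
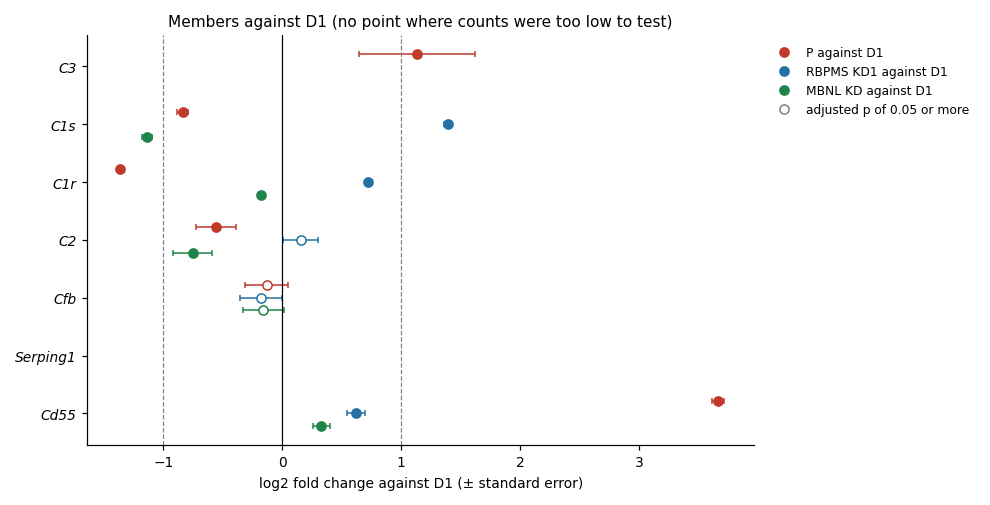
Log2 fold change against D1 of the members that could be tested, with SE from edgeR's quasi-likelihood fit; filled points have an adjusted p under 0.05, dashed lines mark a log2 fold change of 1 in either direction, and Serping1 has no point because its counts were too low to test. Cd55 in P lies at 3.66, and C1s lies beyond the dashed lines on opposite sides in RBPMS KD1 (1.39) and MBNL KD (-1.14).

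For each gene, the 3 genes with the highest Pearson r of log2(scaled count + 1) over the 12 libraries were listed among 12819 genes with a mean of at least 1 CPM. For C1s these were Atp2b1 (r = 0.994), Rhpn2 and Plagl2, and for C1r they were Igf2r (r = 0.997), Mfn2 and Slc38a6. Igf2r had mean levels of 47102 scaled counts in D1, 13621 in P, 80211 in RBPMS KD1 and 35820 in MBNL KD, the same order of groups as C1r. Cd55 was most like Lacc1 (r = 0.998), Tpd52 and Tesc, all highest in P. C2 was most like LOC100361543 (r = 0.97), LOC100363537 and Pdhb. The values for Cfb (Ankib1, r = 0.71, Cldn15 and Col20a1), C3 (Stx16, r = 0.91, Dennd10 and Aste1) and Serping1 (Hiatl3, r = 0.94, Aunip and Tbpl1) rest on levels with little spread between groups or on few counts. The libraries fall into 4 groups, so these values mostly describe likeness of the group means.

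The rest of the system was followed in 44 further complement genes, all present in the table. Of these, 13 never had more than 3 counts in any library: the C1q chains C1qa, C1qb and C1qc, the lectins Mbl1 and Mbl2, C8a and C8b, C4bpa, Cpn1 and Vsig4, all 10 without a single count, and C5, Cfd and Itgam. C1r and C1s were thus measured in cells in which no count of the C1q genes was found in any of the 12 libraries, which allows up to 3 counts in each. In P, 18 of the 44 could be tested, of which 8 were higher and 7 lower at an adjusted p under 0.05, and 9 were called, where the shares over all genes were 40.4%, 37.6% and 27.6%. In RBPMS KD1, 16 were tested, with 6 higher, 2 lower and 2 called, against 29.5%, 29.5% and 4.68% of all genes. In MBNL KD, 16 were tested, with 5 higher, 5 lower and 2 called, against 33.8%, 33.7% and 10.2%. The median log2 fold change of the tested genes was 0.090, 0.090 and -0.14 in the 3 comparisons.

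All 3 lectin pathway genes that could be tested, Masp1, Masp2 and Colec10, were lower in P, against 37.6% of all genes. Masp1, the lectin pathway protease related to C1r and C1s, fell by 2.84 on the log2 scale (SE 0.043, edgeR adjusted p = 2.4e-33), with 5204 ± 134 scaled counts in D1 against 730 ± 25.2 in P (SD, n = 3 each). The collectin Colec10 had 433 to 494 counts in D1 and 2 to 6 in P, a ratio of 127 with an exact 95% binomial interval of 72.2 to 246. In the knockdowns Masp1 rose, to 9834 ± 113 scaled counts in RBPMS KD1 and 13889 ± 226 in MBNL KD. The log2 fold changes were 0.92 (SE 0.029, edgeR adjusted p = 1.5e-20) and 1.42 (SE 0.026, edgeR adjusted p = 1.2e-27). Masp1 was lower in RBPMS KD1 than in MBNL KD by 0.49 on the log2 scale (edgeR adjusted p = 2.8e-17), whereas C1s was higher there by 2.54. The gene-level counts of these related proteases were thus ordered differently between the knockdowns, transcript forms not being told apart.

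Among the substrates and later components, C4b rose in P with a log2 fold change of 1.13 (SE 0.29, edgeR adjusted p = 0.00077), but C4a and C4b are near-identical copies between which reads may be split, and both are uncertain. C6, part of the lytic complex, had 2 counts in each D1 library and 156 to 194 in P, a ratio of 82.6 with an exact 95% binomial interval of 37.7 to 226. It was not tested in the knockdowns, with 2 to 10 counts per library. Of the receptors, C5ar2, which binds C5a, rose in P with a log2 fold change of 3.04 (SE 0.18, edgeR adjusted p = 2.7e-16). Cd93, once taken for a C1q receptor, stood at 6097 ± 464 scaled counts in the D1 libraries and fell to 90.6 ± 16.1 in P, and to 2581 ± 70.2 after Rbpms knockdown (SD, n = 3). The log2 fold changes of Cd93 were -6.08 and -1.24 (edgeR adjusted p = 3.3e-36 and 8.2e-20). C3ar1, the C3a receptor, lay at 46.4 ± 14.8 scaled counts in D1 and reached 169 ± 16.1 with siRNA against Rbpms and 97.9 ± 14.2 in MBNL KD (SD, n = 3). It rose by 1.86 (SE 0.20, edgeR adjusted p = 6.6e-09) and 1.08 (SE 0.24, edgeR adjusted p = 0.0002) on the log2 scale.

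The other regulators did not all move with Cd55 in P. Susd4, a membrane inhibitor, had no count in any D1, RBPMS KD1 or MBNL KD library and 640 to 776 counts in P, at least 233-fold higher than D1 against the limit of 3 counts per library. Cd59, which blocks the lytic complex on the cell surface, fell with a log2 fold change of -1.06 (SE 0.11, edgeR adjusted p = 1.8e-10), opposite in sign to the 3.66 of Cd55. Cd55 and Susd4 thus lay higher and Cd59 lower in the proliferative culture.

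**Figure D4:**
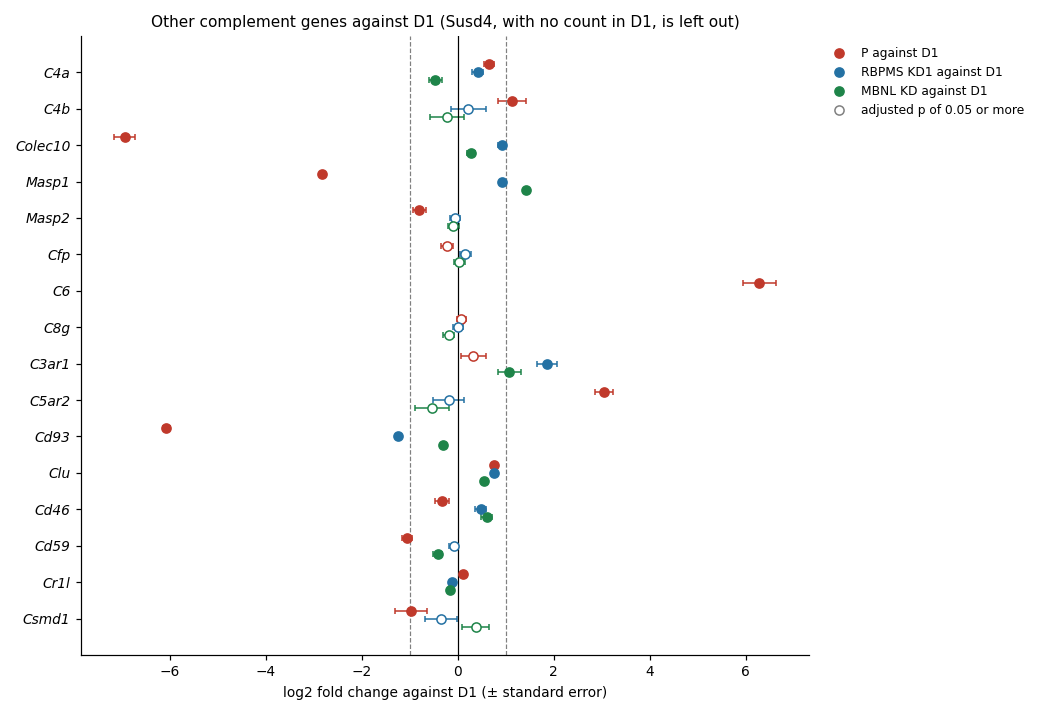
Log2 fold change against D1 of other complement genes among those that could be tested between P and D1, with SE from edgeR; filled points have an adjusted p under 0.05, dashed lines mark a log2 fold change of 1 in either direction, and Susd4, with no count in D1, is left out. Of the genes shown, C6 has a point for P only. Colec10, Masp1 and Cd93 lie far to the left in P and C6 and C5ar2 far to the right, while Masp1 lies to the right of 0 in both knockdowns (0.92 and 1.42).

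Transcription factors, cytokines and receptors of the signals known to induce complement genes were counted as a list of 25, of which 20 could be tested in each comparison. The list also holds Socs1 and Socs3, which suppress cytokine signalling and are not inducers. In RBPMS KD1, where C1r, C1s and Cd55 were higher, 15 of the 20, Socs1 and Socs3 among them, were higher and the other 5 did not pass the test, against 29.5% higher among all genes, with a median log2 fold change of 0.43. The interferon regulator Irf7 was the 1 called, at 1.14 (SE 0.079, edgeR adjusted p = 4.6e-13). In P, 10 were higher and 7 lower, against 40.4% and 37.6% of all genes, with Stat2 (1.09), Irf1 (1.86) and Irf7 (1.27) among those called higher and Il6 (-1.29) called lower on the log2 scale. In MBNL KD, 9 were higher and 6 lower, against 33.8% and 33.7% of all genes, Cebpb (1.05) and Il6 (1.38) being called higher and Nfkb1 (-1.05) lower. Irf1, a direct interferon responder, had a log2 fold change of 0.42 in RBPMS KD1 and -0.96 in MBNL KD (edgeR adjusted p = 3.4e-10 and 1.7e-17), the same signs as C1s in these 2 groups and the opposite sign in P. Whether these genes have a part in the members' changes was not tested.

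Of 8 other acute phase genes, 5 were tested in P, 4 in RBPMS KD1 and 5 in MBNL KD. Pla2g2a and Lcn2 were called in P, Serpina3n in RBPMS KD1 and Orm1 in MBNL KD, all higher, where 27.6%, 4.68% and 10.2% of all genes were called. Pla2g2a, a secreted phospholipase, had 0 to 6 counts in D1 and 267 to 387 in P, a ratio of 90.5 with an exact 95% binomial interval of 49.0 to 189. Serpina3n, a protease inhibitor, had a log2 fold change of 1.03 (SE 0.19, edgeR adjusted p = 2.6e-05) in RBPMS KD1 and -0.79 (SE 0.28, edgeR adjusted p = 0.014) in MBNL KD. Markers of other cell types also differed between the groups. All 8 smooth muscle markers were called lower in P, where C1r and C1s were lower and Cd55 higher. All 8 also passed the test as lower in RBPMS KD1, where C1r, C1s and Cd55 were higher, and 4 of these markers passed the fold threshold. In MBNL KD 2 of the markers were higher and 6 lower. Of all genes, 27.6% were called in P, 29.5% were lower and 4.68% called in RBPMS KD1, and in MBNL KD the shares were 33.8% higher and 33.7% lower. The summed level of 5 endothelial markers was 66.2 to 72.4 scaled counts in D1, 482 to 600 in P, 162 to 163 in RBPMS KD1 and 83.2 to 126 in MBNL KD, with Cdh5 at 0 outside P. The 6 hepatocyte markers summed to 69.4 to 87.6 scaled counts in D1, 239 to 313 in P, 108 to 130 in RBPMS KD1 and 78.6 to 99.9 in MBNL KD, with Ttr at 0 in every library. The 8 macrophage markers summed to 5177 to 5543 in D1, 4339 to 4535 in P, 7501 to 7714 in RBPMS KD1 and 4672 to 4948 in MBNL KD, nearly all of it Cd14. Of that list, Csf1r was called higher in MBNL KD, with a mean of 58.1 scaled counts against 23.5 in D1. Of the 5 fibroblast markers, all tested, 4 were higher and 1 lower in P, 3 higher and 1 lower in RBPMS KD1, and 1 higher and 3 lower in MBNL KD. The shares of all genes were 40.4% and 37.6%, 29.5% and 29.5%, and 33.8% and 33.7%. The sum of the 5, nearly all of it Col1a1, was 1277650 to 1341240 scaled counts in D1, 1592490 to 1775050 in P, 1778320 to 1891890 in RBPMS KD1 and 1156200 to 1189310 in MBNL KD. Dcn had means of 1144, 1900, 1859 and 484 scaled counts in these groups and was the 1 fibroblast marker called, lower in MBNL KD, where C1s was also lower. Both were higher in RBPMS KD1, and in P Dcn was higher while C1s was lower. The part of any such difference in the members' values was not tested.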

How the data were processed

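Counts per gene were used as deposited: the authors subsampled the reads, aligned them with STAR 2.7.11b to mRatBN7.2 and counted them with featureCounts on the RefSeq annotation, without normalization. Strand setting and counting of mates are not given in the sources used here, although the library kit is directional. The authors' deposited normalised signal values (noise-corrected and quantile-normalised, linear scale, 19812 genes, lowest value 35) served in 1 alternative.

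Each comparison used its own 6 libraries in R 4.3.3 with edgeR 4.0.16 (filterByExpr, TMM, glmQLFit, glmQLFTest). A call needed an adjusted p under 0.05 and a log2 fold change beyond 1, thresholds taken from the methods. SE is the log2 fold change over the square root of F. Alternatives were DESeq2 1.42.0 and its size factors, limma 3.58.1 on quantile-normalised counts and on the authors' values, all genes unfiltered, genes with 10 or more counts in each library, all 12 libraries in 1 fit, the replicate block, calls without a fold threshold, and each library omitted once. The procedure was tested on simulated data in which only genes with high counts in D1 were changed. That test says nothing about genes with few counts, such as C3 and Serping1. Likeness was measured on log2(scaled count + 1), where log2 CPM had been planned. Promoter windows and gene order came from RefSeq tables of GRCr8. Named are the members, listed genes called in a comparison with D1, listed genes never above 3 counts, the siRNA targets and the 3 most similar genes per member. The members, lists and rules were chosen with earlier results of these data known. Of the listed genes called, 2 are not reported here.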

Additional observations from a re-analysis of the deposited data

How the results depend on the processing

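Limits of these results are the 3 libraries per group, counts that cannot all stand for separate fragments, and the low levels of C3 and Serping1. Over 313 recomputed log2 fold changes of members, 297 kept their direction and their side of an adjusted p of 0.05, whatever the fold, 9 were no longer under it, 2 newly were and 5 turned direction. All 9 losses were of C3 in P. Its direction turned with quantile normalization (-0.044, limma adjusted p = 0.92). Cfb in P went under it with quantile normalization (-0.59, limma adjusted p = 0.0071) and on the authors' normalised values (-0.45, limma adjusted p = 0.014), without reaching the fold threshold. C2 passed the fold threshold in P with quantile normalization (-1.02) and between the knockdowns without RBPMS KD1 replicate 2 (1.00). The near-zero Cfb difference between the knockdowns, -0.013, turned to 0.044 and 0.033 in these fits. Leaving out 1 library at a time it ranged from -0.073 to 0.11, turning without RBPMS KD1 replicate 2 (0.11) or MBNL KD replicate 1 (0.082). The cause was not tested.

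With no fold threshold, the members called were 5 in P, 3 in RBPMS KD1, 4 in MBNL KD and 4 between the knockdowns, and the further complement genes called were 15, 8, 10 and 8. Of all genes tested, 40.4% were higher and 37.6% lower at an adjusted p under 0.05 in P. These shares were 29.5% and 29.5% in RBPMS KD1, 33.8% and 33.7% in MBNL KD, and 34.5% and 35.1% between the knockdowns. With no filter on low counts, 2 members were called in MBNL KD and 2 between the knockdowns, and 4 and 2 of the further genes. Over all genes in that setting, 1877 of 23369 were called in MBNL KD and 2127 of 23612 between the knockdowns. Between the knockdowns edgeR had called 0 further genes, as had DESeq2, and 9 of them had an unadjusted p under 0.05. In MBNL KD 1 further gene was called with quantile normalization and 1 on the authors' values. Leaving out 1 library at a time, the members called ranged from 2 to 3 in P, 1 to 1 in each knockdown and 1 to 2 between them (2 without RBPMS KD1 replicate 2), and the further genes from 8 to 10, 2 to 2, 2 to 3 and 0 to 1 (1 without RBPMS KD1 replicate 2 or 3 or MBNL KD replicate 2). Without genes at or under 3 counts in D1, an alternative chosen after seeing the data, 7 further genes were called in P, and halving all counts, also chosen then, moved no member that could be recomputed across that adjusted p.

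The replicate numbers did not pair the libraries (correlations of deviations between -0.022 and 0.020). With the replicate number as a block, 2 members were called in P, C3 being lost (1.11, edgeR adjusted p = 0.067), and 1 in each other comparison, and over all genes 4593, 730, 1634 and 1915 were called, against 4641, 745, 1643 and 1920 without it.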
